A study of Sus scrofa with 10 samples.

Results

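Potassium channel genes were followed in nuclear RNA of sorted minipig (Sus scrofa) cardiomyocytes. The members were all genes whose name in the deposited tables begins with KCN, the symbol stem shared by potassium channel pores and their accessory subunits. There were 93 such genes among 35670 gene identifiers, of which 23878 carried a name. The comparison groups were 3 libraries (8 to 10) of deoxycorticosterone acetate (DOCA) plus JK07, 2 libraries (6 and 7) of DOCA alone, and 5 control libraries (1 to 5) given phosphate-buffered saline. All were labelled wild type, and their tissue was given as heart, with no chamber, age, dose or time in the sources used here. DOCA is a mineralocorticoid given to animals, often with salt, to raise blood pressure. JK07 is, per the title of the series, an ERBB4 agonist, and ERBB4 is a neuregulin receptor of cardiomyocytes. The study asked about its action on remodeled atria and their readiness to fibrillate.

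Potassium channels let potassium leave the cardiomyocyte and so end each action potential and hold the resting voltage. The outward currents follow each other in time: a transient current (Ito) starts repolarization, an ultrarapid current (IKur) shapes the atrial plateau, and a rapid (IKr) and a slow (IKs) delayed current complete it. Inward rectifiers hold the resting voltage (IK1), open when acetylcholine reaches its receptor (IKACh) or open when ATP falls (IKATP). Calcium-activated channels of small (SK) and big (BK) conductance and the background tandem-pore channels (K2P) add to these. IKur and IKACh are known as mainly atrial currents, and their remodeling is a familiar feature of atrial fibrillation.

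Ribosomal RNA took 77.6% to 90.8% of the 28.15 to 106.38 M (M, mega) estimated counts of a library. When it and mitochondrial RNA were set aside, the JK07 libraries held 9.03 to 12.91 M counts, DOCA libraries 6 and 7 held 6.87 and 3.3 M, and the controls held 8.67 to 13.94 M. The DOCA group therefore rested on 2 libraries of the lowest depth. These also had the fewest genes above 0, 11563 and 10658, against 14952 in JK07 library 10. Mitochondrial RNA took 2.58% and 0.488% of their counts outside ribosomal RNA, against 3.69% to 8.26% in the other libraries. Neither depth nor these differences can be told apart from treatment there. The 9 cardiomyocyte markers matched were above 0 in all 10 libraries. Of these 9, 1 was called lower in DOCA than in control and higher in DOCA plus JK07 than in DOCA. The 7 atrial markers matched summed to 545.0 to 978.0 CPM (counts scaled to a common library total) with DOCA plus JK07, 657.0 to 661.0 CPM with DOCA and 649.0 to 880.0 CPM in control, and 2 of them were called lower in DOCA than in control by the test described with the group comparisons. The 5 ventricular markers matched summed to 363.0 to 778.0 CPM with DOCA plus JK07, 302.0 to 415.0 CPM with DOCA and 384.0 to 477.0 CPM in control, with 1 of 4 tested called lower in DOCA. Most of the ventricular sum came from MYH7, a myosin heavy chain gene at 591.0, 350.0 and 394.0 CPM on average with DOCA plus JK07, DOCA and control. The light chain gene MYL2 did not exceed 1.79 CPM in any library and does not stand for the list. The ventricular marker called lower in DOCA averaged 43.3, 6.7 and 24.9 CPM with DOCA plus JK07, DOCA and control. Markers of fibroblasts, endothelium, smooth muscle and macrophages were also above 0 in all groups, so the libraries held RNA of other cells. In these bulk libraries, fewer nuclei of a type and less RNA per nucleus cannot be told apart.

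Of the 93 genes, 27 were above 0 in all 5 control libraries, 11 in 1 to 4 of them and 55 in none. The share above 0 in every control was 29.0%, against 37.6% of all identifiers and 44.4% of the named ones. Of the 55 genes above 0 in no control, 5 were above 0 in other libraries, KCNA6, KCND1, KCNH3 and KCNMB3 among them. Both KCN genes listed for IKs and both listed for IKATP were above 0 in every control, as were 3 of 5 for IKur, 2 of 3 for IK1, 2 of 4 for IKACh and 2 of 4 for SK. Of the 9 genes listed for Ito, 3 were above 0 in every control, and of the 14 K2P genes, 2 were. Of the 36 remaining voltage-gated genes and their subunits, many of them known as neuronal, 28 were above 0 in no control. A value of 0 in these tables means only that every transcript of the gene lay below a coverage of 1, coverage being the mean depth of reads over a base. KCNJ12, an IK1 gene, was not among the named rows and was not analysed here.

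Levels of different genes were set against each other only per length, in the deposited TPM (a transcript share corrected for length) of the 5 controls. The 2 pore subunits of IKACh led the order. KCNJ3 (chromosome 15, 62264069 to 62413566, plus strand of Sscrofa11.1) averaged 14.2 ± 5.51 TPM (SD, n = 5), and KCNJ5 (chromosome 9, 55836701 to 55864941, plus strand) averaged 10.6 ± 4.02 TPM. They took on average 21.4% and 16.1% of the TPM summed over the 93 genes, and stood at percentiles 96.6 and 95.0 of all genes above 0 in every control. The other 2 channel genes of that family listed for IKACh, KCNJ6 and KCNJ9, were above 0 in no control. KCNJ3 at 9.06 to 22.2 TPM did not overlap KCNK3, the next gene but one, at 2.85 to 7.53 TPM.

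KCNK3, a background channel gene known for its expression in human atria, averaged 5.02 ± 2.07 TPM and was the third of the order. KCNIP2, the calcium-binding beta subunit of Ito channels, averaged 3.72 ± 1.93 TPM. KCNQ1, the pore of IKs, averaged 3.24 ± 0.661 TPM, KCNJ8, a pore of ATP-sensitive channels in vascular muscle and heart, 2.81 ± 0.583 TPM, and KCNH2, the pore of IKr, 2.76 ± 1.59 TPM. KCNA5, the pore of IKur, averaged 2.27 ± 0.721 TPM and KCNN2, an SK pore, 1.98 ± 0.140 TPM (SD, n = 5 for each). The first 10 genes kept their ranks when TPM was rescaled to the genes outside ribosomal and mitochondrial RNA. Every neighbouring pair in the order of the 27 genes, 26 of 26 pairs, had overlapping ranges over the controls, so the ranges did not separate single steps of the order. Within every control library, 3 of the 26 steps held: KCNJ3 above KCNJ5, KCNJ5 above KCNK3, and KCNQ1 above KCNJ8, each in 5 of 5.

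Within currents the levels were uneven. For Ito, KCNIP2 ranged from 1.40 to 5.61 TPM and the pore gene KCND3 from 0.450 to 0.701 TPM, without overlap. The alternative Ito pore KCND2 was above 0 in no control and KCNA4 in 1. For IK1, KCNJ4 ranged from 1.09 to 2.95 TPM and KCNJ2, usually given as the principal ventricular IK1 gene, from 0.207 to 0.623 TPM, also without overlap. The model of KCNJ4 spans 1344 bases and that of KCNJ2 spans 10546, and any error in these models enters the TPM. For SK, KCNN2 ranged from 1.87 to 2.22 TPM and KCNN3 from 0.251 to 0.946 TPM. For IKs, KCNQ1 ranged from 2.35 to 4.16 TPM and its accessory subunit KCNE1 from 0.412 to 1.32 TPM. For IKATP, KCNJ8 ranged from 2.27 to 3.76 TPM and KCNJ11, the main pore gene of cardiomyocyte ATP-sensitive channels, from 0.406 to 0.998 TPM. KCNE2, an accessory subunit assigned to IKr, and the K2P genes KCNK1 and KCNK2 were above 0 in no control.

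**Figure D1:**
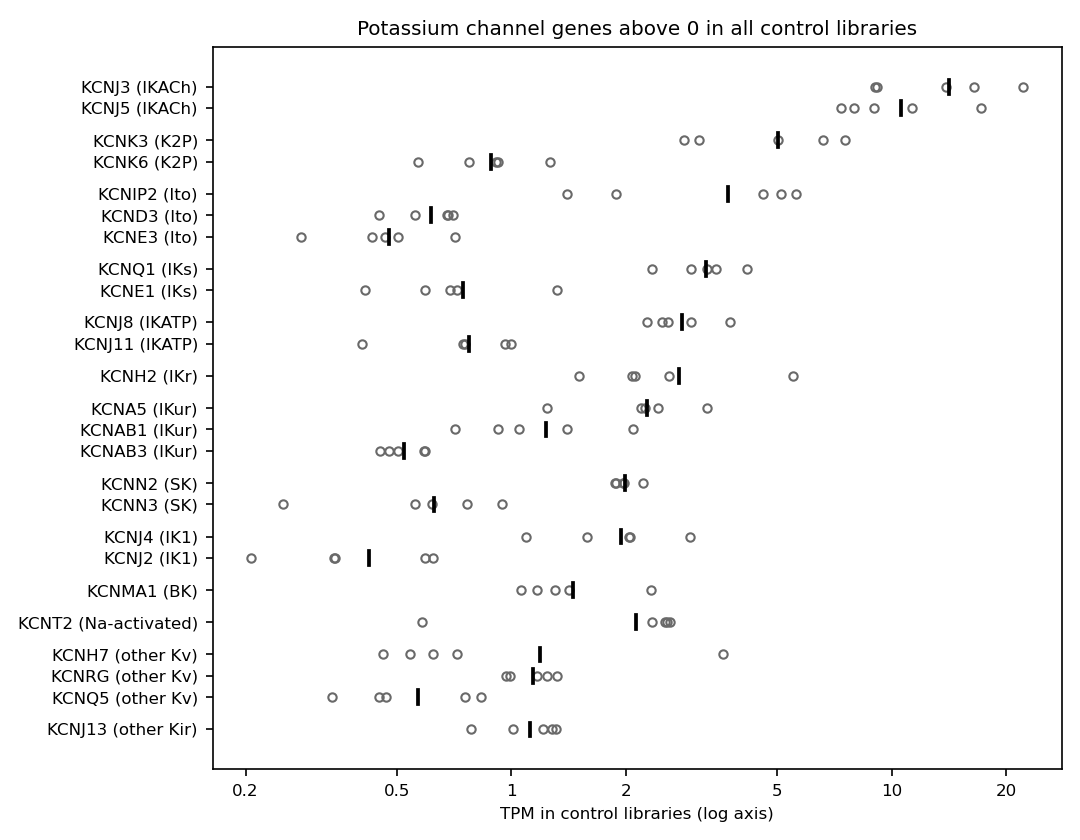
Deposited TPM (log axis) of 25 potassium channel genes above 0 in all 5 control libraries, ordered by current; circles are control libraries and black bars are means. KCNJ3 and KCNJ5 stand highest, at means of 14.2 and 10.6 TPM, and KCNJ2 lowest, at 0.421 TPM.

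The groups were then compared in CPM scaled by the TMM method, with the quasi-likelihood F test of edgeR fitted over all genes and Benjamini-Hochberg adjustment. Of the 93 genes, 35 passed the filter on low counts and were tested. In DOCA against control, 7 of these 35 were called lower (20.0%) and 0 higher, where 19.7% of all 17251 genes tested were called lower and 5.73% higher. The share of lower calls was thus at the background of all genes. Of the 7, 6 were listed at 0 in both DOCA libraries, and their test took those values as measured zeros. The median log2 fold change was -0.54 over the tested KCN genes and -0.63 over all genes, so the whole table was shifted down in DOCA; under upper quartile scaling the all-gene median was -0.39. In DOCA plus JK07 against DOCA, 6 of 35 were called higher (17.1%) and 0 lower, against 14.7% and 2.25% of all genes, and the medians were 0.58 and 0.55. The 2 comparisons share the DOCA libraries. In DOCA plus JK07 against control, 0 of 35 passed in either direction, as did 0.0% of all genes, with 1 KCN gene at an unadjusted p under 0.05. DESeq2 also called 0 KCN genes in that comparison, but over all genes it called 51 higher and 64 lower. The labels do not say that libraries came from separate animals, so all p-values measure the spread between these libraries, which may be technical.

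Among the genes above 0 in both DOCA libraries, KCNJ5 was the only KCN gene called. It measured 14.3, 15.1 and 50.9 CPM with DOCA plus JK07, 6.99 and 14.2 CPM with DOCA, and 33.3, 62.8, 33.1, 45.1 and 27.5 CPM in control. Both DOCA libraries lay below all controls, and JK07 libraries 8 and 9 lay near the higher DOCA library while library 10 lay within the controls. KCNJ5 fell in DOCA against control (log2 fold change -1.93 ± 0.62, SE; edgeR adjusted p = 0.0488), beyond the all-gene median of -0.63. The call stood at the edge of the threshold and was lost in 13 of 19 other settings. Among all settings with both DOCA libraries, the adjusted p lay between 0.00555 (DESeq2) and 0.126 (limma voom with quality weights). Leaving out 1 library ended the call for 9 of the 10 libraries, all but library 10. With library 7 as the only DOCA library the value was -1.51, and with library 6 as the only one it was -2.54. The lone library was then assumed to vary like the other groups. DOCA plus JK07 differed from DOCA by 1.34 ± 0.63 (edgeR adjusted p = 0.193), and from control by -0.59 ± 0.49 (edgeR adjusted p = 1.0). Without library 10 these values were 0.41 and -1.46, and neither passed.

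KCNJ3, the partner of KCNJ5 in the IKACh channel, measured 11.5, 8.81 and 28.5 CPM with DOCA plus JK07, 8.62 and 4.72 CPM with DOCA, and 10.5, 25.2, 21.3, 17.3 and 10.6 CPM in control. Its DOCA libraries too lay below all controls, and library 10 was again the highest. The log2 fold change was -1.35 ± 0.57 in DOCA against control (edgeR adjusted p = 0.122), 1.28 ± 0.60 in DOCA plus JK07 against DOCA (adjusted p = 0.186) and -0.06 ± 0.46 in DOCA plus JK07 against control. None passed in edgeR. In limma on log2(TPM + 1) the first was -1.63 (adjusted p = 0.0231) and the second 1.68 (adjusted p = 0.0295). Both passed with 0.1 added too. With 1 added, limma called 4844 of all 18115 genes lower in the first comparison and 5430 higher in the second. Without library 10 the edgeR values of KCNJ3 were 0.55 in DOCA plus JK07 against DOCA and -0.75 in DOCA plus JK07 against control. Within a library, the TPM ratio of KCNJ5 to KCNJ3 was 0.388, 0.533 and 0.556 with DOCA plus JK07, 0.252 and 0.939 with DOCA, and 0.992, 0.776, 0.483, 0.813 and 0.804 in control. The JK07 and control ratios overlapped, with a mean log2 difference of -0.63 (exact two-sided permutation p = 0.107, adjusted 0.214 over 4 ratios).

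The pore genes of IKur and of the atrial background current, KCNA5 and KCNK3, were not called in any comparison. KCNA5 measured 2.28, 1.98 and 4.47 CPM with DOCA plus JK07, 2.02 and 2.27 CPM with DOCA, and 4.51, 5.96, 4.55, 4.50 and 2.33 CPM in control. Both DOCA libraries lay just below the lowest control, with a log2 fold change of -1.03 ± 0.43 (edgeR adjusted p = 0.124). KCNK3 measured 3.92, 2.88 and 8.14 CPM with DOCA plus JK07, 4.30 and 3.31 CPM with DOCA, and 5.13, 7.58, 7.56, 3.43 and 2.96 CPM in control, so that all groups overlapped (-0.49 ± 0.51 in DOCA against control, edgeR adjusted p = 0.504). JK07 library 10 held the highest JK07 value of KCNJ3, KCNJ5, KCNA5 and KCNK3. It also held the highest summed KCN level of its group, 194.0 CPM against 124.0 and 113.0 CPM in libraries 8 and 9. The DOCA libraries summed to 111.0 and 68.3 CPM and the controls to between 118.0 and 207.0 CPM.

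Of the 14 genes above 0 in every DOCA and control library, only KCNIP2 had all 3 JK07 libraries above all controls in CPM. That was a pattern of 4.61% of the 9026 genes so measured. In deposited TPM the 2 groups overlapped, at 5.49 in JK07 library 9 and 5.61 in control library 4. KCNIP2 had 11.6, 10.0 and 12.0 CPM with DOCA plus JK07, 6.78 and 1.20 CPM with DOCA, and 2.92, 7.76, 7.94, 9.33 and 2.18 CPM in control. The JK07 libraries were close together, the DOCA libraries far apart, and the controls split into 3 higher and 2 lower values. No edgeR comparison passed: 0.89 ± 0.59 in DOCA plus JK07 against control (adjusted p = 1.0), 1.48 ± 0.79 in DOCA plus JK07 against DOCA (adjusted p = 0.246) and -0.59 ± 0.72 in DOCA against control (adjusted p = 0.571). The middle comparison passed in both limma fits on TPM, at adjusted p = 0.00671 with 1 added and 0.00867 with 0.1 added. In that comparison those fits called 5430 and 6016 of all 18115 genes higher. In edgeR the middle comparison of KCNIP2 was 3.22 without DOCA library 6 and 0.73 without DOCA library 7. With limma voom and quality weights per library, the adjusted p of KCNIP2 there was 0.512. DOCA against control was -2.32 without library 6 and 0.16 without library 7, so its sign rested on library 7. The TPM ratio of KCNIP2 to KCND3 was 16.0, 18.5 and 8.17 with DOCA plus JK07, against 4.21, 7.29, 8.24, 8.25 and 2.07 in control, a mean log2 difference of 1.33 (exact two-sided permutation p = 0.107, adjusted 0.214). With 3 against 5 libraries the smallest p such a test allows is 0.0357.

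The same 14 genes gave 4 with both DOCA libraries below all controls, namely KCNA5, KCNJ3, KCNJ5 and KCNRG, and 0 above, where 23.6% and 18.0% of the 9026 genes did so. In KCNIP2, KCNJ3, KCNJ5 and KCNRG, again 4 genes, all JK07 libraries lay above both DOCA libraries, where 24.7% of all genes did. KCNRG, a soluble protein related to channel assembly domains, measured 5.59, 4.71 and 3.77 CPM with DOCA plus JK07, 3.05 and 3.24 CPM with DOCA, and 3.37 to 4.91 CPM in control. Its model shares 927 bases of the same strand with TRIM13, so reads there cannot be assigned to one gene with certainty.

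**Figure D2:**
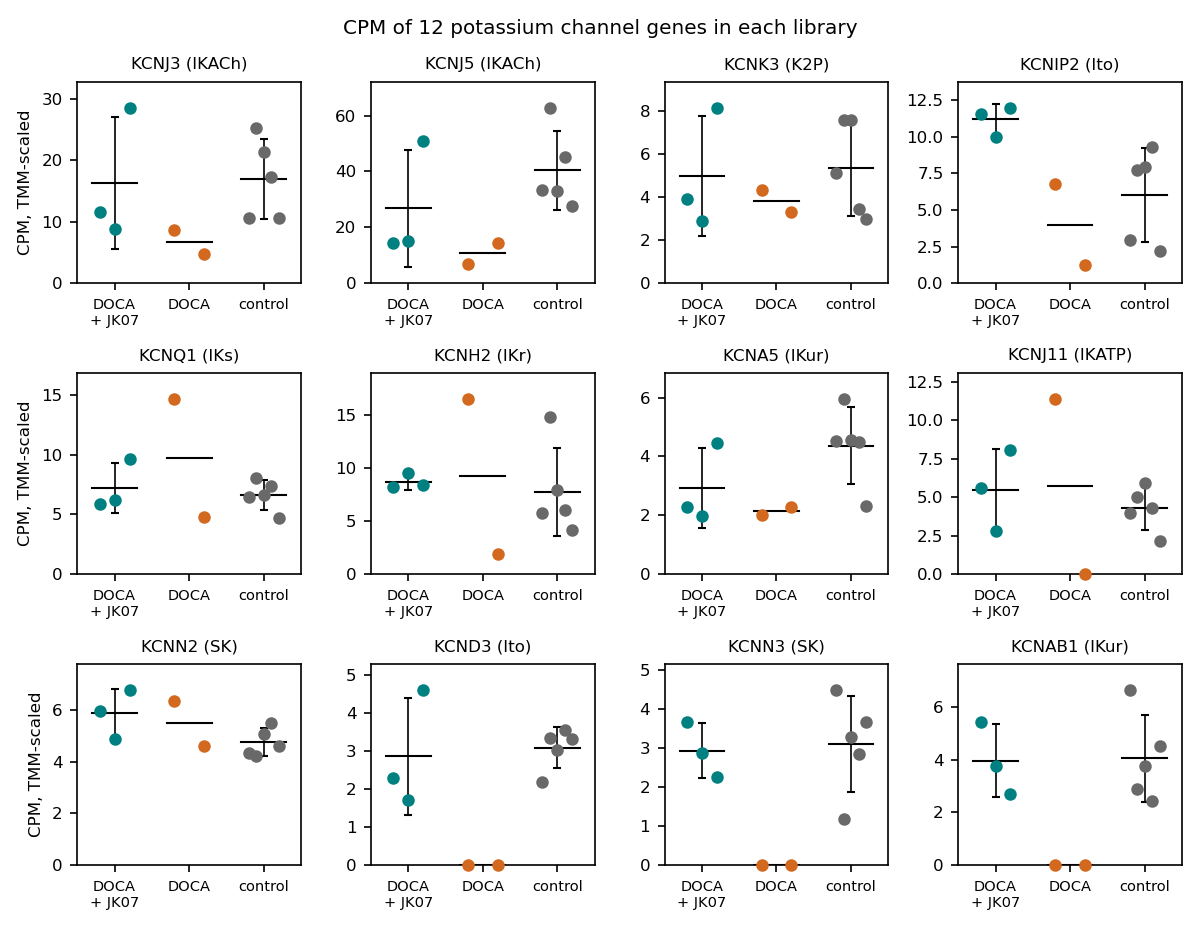
TMM-scaled CPM of 12 potassium channel genes in each library, with DOCA + JK07 left of DOCA and control; bars are means and error bars SD (drawn for the groups of 3 and 5 libraries). KCNJ5 and KCNJ3 lie below all controls in both DOCA libraries, KCNH2, KCNQ1 and KCNJ11 are far apart between the 2 DOCA libraries, and KCND3, KCNN3 and KCNAB1 are listed at 0 in both.

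The delayed rectifier genes KCNH2 and KCNQ1 and the ATP-sensitive gene KCNJ11 separated the 2 DOCA libraries from each other. KCNH2 measured 8.15, 9.51 and 8.34 CPM with DOCA plus JK07, 16.5 and 1.91 CPM with DOCA, and 5.79, 14.8, 7.88, 6.06 and 4.16 CPM in control. In TMM-scaled CPM, DOCA library 6 was thus the highest and library 7 the lowest of all 10. The mean difference from control was 0.25 ± 0.69 (edgeR adjusted p = 0.818). The place of library 6 depends on the scaling, as its TMM factor was 0.511 and that of library 7 was 1.06. In deposited TPM, KCNH2 stood at 3.0 in library 6, below 5.51 in control library 2 and 4.33 in JK07 library 10. Library 7 was also lowest in TPM, at 0.624. KCNQ1 measured 5.85, 6.23 and 9.61 CPM with DOCA plus JK07, 14.7 and 4.78 CPM with DOCA, and 4.71 to 8.08 CPM in control (0.55 ± 0.39, edgeR adjusted p = 0.328). KCNJ11 measured 5.59, 2.77 and 8.06 CPM with DOCA plus JK07, 11.4 and 0 CPM with DOCA, and 2.18 to 5.93 CPM in control. For KCNH2, KCNQ1 and KCNJ11 the DOCA mean of CPM therefore lies far from both libraries. In TPM, library 6 held 3.68 of KCNQ1 and 1.06 of KCNJ11, below 6.87 and 2.15 in JK07 library 10. The IK1 gene KCNJ4 measured 2.15, 2.93 and 5.30 CPM with DOCA plus JK07, 1.05 and 0 CPM with DOCA, and 0.934 to 2.57 CPM in control. The other IK1 gene, KCNJ2, measured 1.69, 1.37 and 1.25 CPM with DOCA plus JK07, 2.12 and 0 CPM with DOCA, and 0.830 to 2.20 CPM in control. KCNE1 measured 0.419, 0.675 and 0.567 CPM with DOCA plus JK07, 0.819 and 0 CPM with DOCA, and 0.234 to 0.669 CPM in control. All 3 were thus above 0 in library 6 and at 0 in library 7.

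KCNMA1, the BK pore known from smooth muscle and other cells, showed the opposite order, with 3.55, 6.17 and 3.60 CPM with DOCA plus JK07, 3.46 and 11.3 CPM with DOCA, and 5.24, 4.20, 6.40, 5.06 and 9.47 CPM in control. DOCA library 7 and control library 5 were highest. The 7 fibroblast markers, all above 0 in every library, summed to 564.0 to 1440.0 CPM with DOCA plus JK07, 554.0 and 2170.0 CPM in DOCA libraries 6 and 7, and 568.0 to 2280.0 CPM in control, with the top value in control library 5. The part of these cells in the KCNMA1 value was not tested. The 4 BK beta subunit genes KCNMB1 to KCNMB4 were above 0 in no control.

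KCNN2, KCNJ8 and KCNJ13 were not called in any comparison and showed small differences from control. KCNN2 measured 5.97, 4.90 and 6.79 CPM with DOCA plus JK07, 6.35 and 4.62 CPM with DOCA, and 4.24 to 5.52 CPM in control, with a log2 fold change of 0.20 ± 0.21 in DOCA against control (edgeR adjusted p = 0.504) and 0.31 ± 0.19 in DOCA plus JK07 against control. KCNJ8 measured 3.51, 2.60 and 2.47 CPM with DOCA plus JK07, 3.76 and 3.31 CPM with DOCA, and 2.47 to 3.96 CPM in control (0.18 ± 0.26 in DOCA against control). KCNJ13, an inward rectifier best known from epithelia, averaged 2.84 ± 0.771 CPM with DOCA plus JK07, 3.43 ± 1.26 CPM with DOCA and 3.62 ± 0.644 CPM in control (SD, n = 3, 2 and 5). KCNT2, a sodium-activated channel gene, measured 12.6, 6.07 and 9.19 CPM with DOCA plus JK07, 7.99 and 3.08 CPM with DOCA and 2.38 to 12.0 CPM in control. Its log2 fold change was -0.72 ± 0.61 in DOCA against control (edgeR adjusted p = 0.407) and 0.74 ± 0.66 in DOCA plus JK07 against DOCA (adjusted p = 0.471), with overlapping groups.

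**Figure D3:**
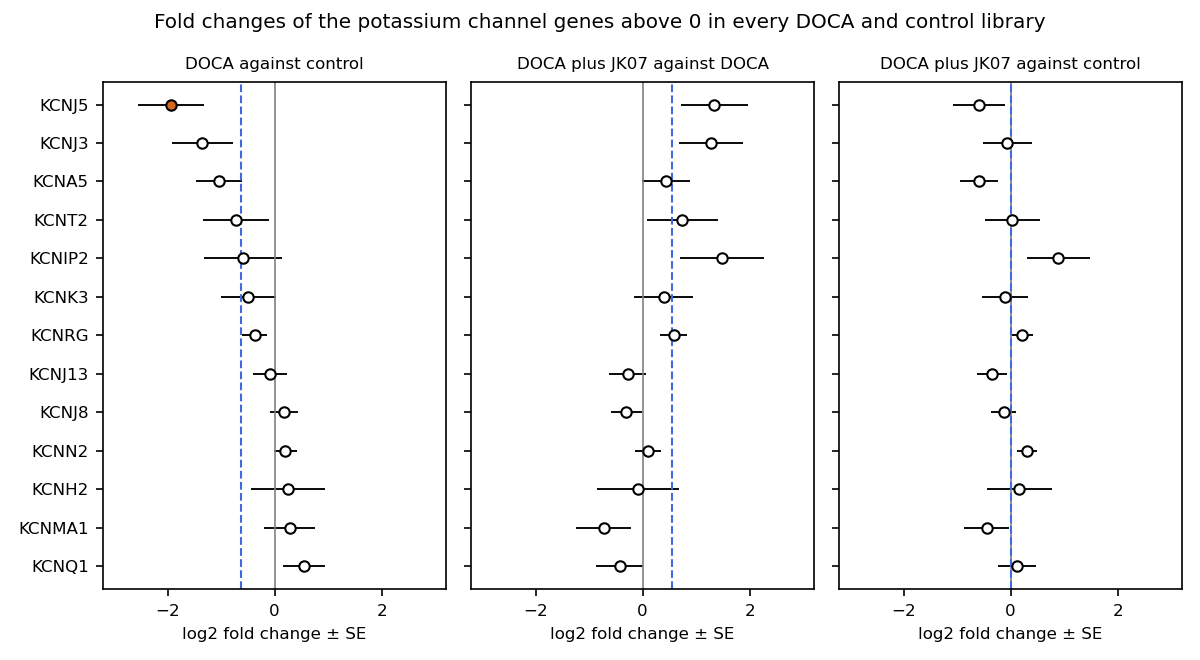
Log2 fold changes (points) with SE (bars) from edgeR for 13 potassium channel genes above 0 in every DOCA and control library; the grey line is 0, the dashed blue line the median of all genes tested, and a filled point an adjusted p under 0.05. KCNJ5 in DOCA against control, at -1.93, is the only filled point.

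The other 6 called genes of DOCA against control were KCNAB1, KCNAB3, KCND3, KCNE3, KCNK6 and KCNN3. They were listed at 0 in both DOCA libraries and above 0 in all JK07 and control libraries, and the same 6 were the calls of DOCA plus JK07 against DOCA. KCND3, the Ito pore, measured 2.28, 1.70 and 4.60 CPM with DOCA plus JK07, 0 and 0 with DOCA, and 2.18, 3.34, 3.02, 3.55 and 3.32 CPM in control. KCNN3, the second SK pore, measured 3.67, 2.87 and 2.27 CPM with DOCA plus JK07, 0 and 0 with DOCA, and 4.50, 1.18, 3.30, 2.85 and 3.67 CPM in control. KCNK6, a tandem-pore (K2P) channel gene, measured 2.12, 3.52 and 7.24 CPM with DOCA plus JK07, 0 and 0 with DOCA, and 1.77 to 3.81 CPM in control. In each the JK07 and control ranges overlapped.

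KCNAB1 and KCNAB3 encode beta subunits that bind voltage-gated channels from the inside of the cell. KCNAB1 measured 5.45, 3.76 and 2.69 CPM with DOCA plus JK07, 0 and 0 with DOCA, and 6.66, 2.88, 3.76, 2.45 and 4.51 CPM in control. KCNAB3 measured 1.56, 1.64 and 2.52 CPM with DOCA plus JK07, 0 and 0 with DOCA, and 1.58 to 2.21 CPM in control. KCNE3, a small accessory subunit, measured 1.91, 1.00 and 1.08 CPM with DOCA plus JK07, 0 and 0 with DOCA, and 0.634 to 1.65 CPM in control. No fold change or p is given for these 6 genes, because a listed 0 stands for a coverage under 1 and not for absence. In JK07 library 8, for example, 185 counts of KCND3 stood at a coverage of 1.85, so a coverage just under 1 can hide many counts. These calls therefore describe values under the coverage minimum, and the size of any decrease was not measured. All 6 lost their call in both comparisons when libraries were weighted by quality, and in no other setting.

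How far these zeros could arise from depth was described by the coverage each gene would have had at its mean control level in each DOCA library. For KCND3 this expected coverage was 1.21 in library 6 and 0.925 in library 7, and for KCNN3 it was 1.24 and 0.947, next to the minimum of 1. KCNAB3 stood at 1.03 and 0.790, and KCNE3 at 0.943 and 0.722. KCNAB1, at 2.41 and 1.85, and KCNK6, at 1.74 and 1.33, stood further above the minimum. Among KCN genes with an expected coverage of 1 to 2 in library 6, 6 of 9 (66.7%) were listed at 0, where 51.1% of all genes in that range were. Between 2 and 5 the shares were 2 of 9 (22.2%) and 20.7%, and from 5 upward 0 of 7 and 2.1%. In library 7 the shares were 5 of 8 (62.5%) and 47.0% between 1 and 2, and 1 of 8 and 16.4% between 2 and 5. With at most 9 KCN genes in a range, these shares were given as a description and not tested against each other.

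Over all 27 genes above 0 in every control, 8 (29.6%) were at 0 in both DOCA libraries, where 14.4% of 13360 genes were. The remaining 2 were KCNH7 and KCNQ5. Of the 13 genes at 0 in at least 1 DOCA library, 10 stood under 1 TPM on average in control. The expected coverage depends on the scaling. On TPM rescaled to the genes outside ribosomal and mitochondrial RNA it was 2.30 for KCND3 and 2.38 for KCNN3 in library 6, and 0.721 and 0.746 in library 7. Of the 8 genes, 3 (KCNAB1, KCNH7 and KCNK6) had an expected coverage of at least 1 in both libraries on either scale.

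**Figure D4:**
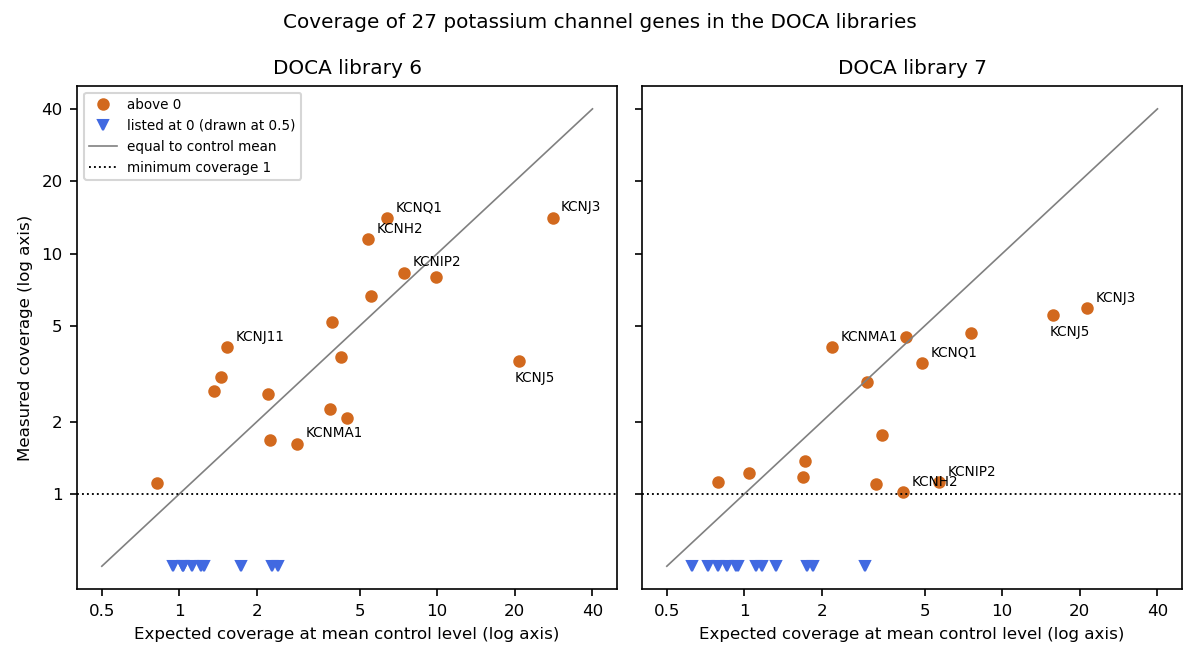
Measured coverage against the coverage expected at the mean control level, both on log axes, for the 27 potassium channel genes above 0 in every control, in DOCA libraries 6 and 7; genes listed at 0 are drawn at 0.5 and the dotted line is the minimum coverage of 1. The genes at 0 lie at low expected coverage, and KCNJ5 and KCNJ3 lie below the grey line of equality in both libraries.

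KCNH7 and KCNQ5 were the only 2 of the 27 genes not above 0 in all JK07 libraries, where 4.62% of 13360 genes were at 0 in at least 1. Both were at 0 in libraries 8 and 9, that is 7.4% of the 27 genes in each. Of the 13360 genes, 0.67% and 0.75% were at 0 in these libraries, and 3.76% in library 10. KCNH7, a relative of KCNH2 known from neurons, measured 0, 0 and 1.45 CPM with DOCA plus JK07, 0 and 0 with DOCA, and 1.76, 13.6, 2.68, 2.98 and 2.10 CPM in control, so that all controls exceeded all treated libraries. Its control mean rested on library 2. At the control median, its expected coverage was 2.75 and 2.81 in JK07 libraries 8 and 9, where it was at 0. KCNQ5, a relative of KCNQ1 named after its values were seen, measured 0, 0 and 2.15 CPM with DOCA plus JK07, 0 and 0 with DOCA, and 1.61 to 3.48 CPM in control, with an expected coverage at the control mean of 2.32 and 2.37 in libraries 8 and 9. Of all genes with an expected coverage of 2 to 5 at the control mean, 1.2% and 1.7% were at 0 in these libraries. At the control median KCNQ5 stood lower, at 1.87 and 1.91. Of all genes at 1 to 2 by the mean, 8.3% and 7.8% were at 0 in libraries 8 and 9. Neither gene passed in DOCA plus JK07 against control (edgeR adjusted p = 1.0 for each). The neuron and Schwann cell markers matched, 8 in number, summed to 6.24 to 10.1 CPM with DOCA plus JK07, 0 and 2.56 CPM with DOCA, and 2.27 to 8.83 CPM in control, with 4 of them, GAP43 and PRPH included, at 0 in every library. Of the 4 tested, 2 were called lower in DOCA than in control, both listed at 0 in the DOCA libraries. Their part in the KCNH7 and KCNQ5 values was not tested.

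Genes that work with these channels but carry other names were listed as partners, with earlier results of these data known. Of the 23 matched, 21 were tested, and the shares and medians only describe this list. In DOCA against control 5 were called lower (23.8%) and 0 higher, where 19.7% of all genes were called lower, with a median log2 fold change of -1.44 against -0.63 for all genes. In DOCA plus JK07 against DOCA the same 5 were called higher and 0 lower, where 14.7% of all genes were called higher, with medians of 1.47 and 0.55. Both comparisons share the DOCA libraries. None passed in DOCA plus JK07 against control. CHRM2, the muscarinic receptor that opens IKACh, measured 17.1, 13.1 and 25.4 CPM with DOCA plus JK07, 6.04 and 4.78 CPM with DOCA, and 16.6, 46.7, 20.5, 26.0 and 16.7 CPM in control (-2.22 ± 0.49, edgeR adjusted p = 0.0101, and 1.77 ± 0.50, adjusted p = 0.0414). All DOCA values lay below both other groups.

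ABCC9, a regulatory subunit of ATP-sensitive channels, measured 42.4, 31.4 and 47.5 CPM with DOCA plus JK07, 9.34 and 4.58 CPM with DOCA, and 33.8, 57.8, 37.8, 40.3 and 23.4 CPM in control (-2.47 ± 0.43, edgeR adjusted p = 0.00248, and 2.54 ± 0.45, adjusted p = 0.00312). KCNJ8, the neighbouring pore gene on chromosome 5, was not called in either comparison. ABCC8, another regulatory subunit, named after its values were seen, was not called either. It averaged 4.50 ± 0.396, 5.18 ± 3.17 and 3.42 ± 0.774 CPM in DOCA plus JK07, DOCA and control (SD, n = 3, 2 and 5). ABCC9 is also known from pericytes, and the 8 smooth muscle and pericyte markers other than ABCC9 and KCNJ8, all above 0 in every library, summed to 103.0 to 119.0 CPM with DOCA plus JK07, 81.8 to 99.5 CPM with DOCA and 69.6 to 120.0 CPM in control. Of the 8, RGS5, a pericyte gene named after its values were seen, moved with ABCC9, at 7.11 to 9.41 CPM with DOCA plus JK07, 2.31 to 3.07 CPM with DOCA and 6.23 to 19.2 CPM in control (-2.10, edgeR adjusted p = 0.00579, and 1.65, adjusted p = 0.0283). It was the only one of the 8 called in either comparison. The part of these cells in the ABCC9 value was not tested. The other 3 called partners were AKAP9, the scaffold of the IKs channel, at 54.1 ± 4.24, 19.1 ± 1.28 and 51.8 ± 7.70 CPM in DOCA plus JK07, DOCA and control (SD, n = 3, 2 and 5), TBX5, a transcription factor of the atria, at 22.1 ± 14.8, 2.58 ± 0.765 and 14.8 ± 4.46 CPM, and DLG1, a scaffold that binds channel tails, at 15.9 ± 2.08, 8.19 ± 2.94 and 14.6 ± 2.45 CPM.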

How the data were processed

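Nuclear RNA of sorted cardiomyocytes was extracted with TRIzol and made into libraries with a TruSeq RNA kit, per the labels' protocols. SAMtools, StringTie and edgeR were used on Sscrofa11.1, per the submitters' processing notes; for the aligner, tool versions and annotation the sources used here give nothing. Each library's deposited table holds, per the file headers, coverage signal, FPKM (not used in tests) and TPM for 35670 identifiers. The authors also deposited 1 table of whole-number estimated counts without a gene column, matched here in sorted identifier order: 99.998% of values were then 0 in both tables or in neither, against 62.6% after a shift by 1 line. In each library the smallest TPM above 0 stood at a coverage of 1.00. Strand of counting was not given, so overlapping genes are uncertain. Whole-number counts needed no rounding.

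Counts were tested with edgeR 4.0.16 in R 4.3.3 (TMM scaling, filterByExpr, group as the only term, all 10 libraries in 1 model, quasi-likelihood F test), with adjustment over all 17251 genes tested and a threshold of 0.05. The DOCA group, with 2 libraries, adds little to the shared spread, which may therefore be too small for DOCA. CPM are per TMM-scaled total count, and the SE of a log2 fold change is its size over the root of F. Scripts were tested on simulated data. Alternatives were DESeq2 1.42.0, limma 3.58.1 on log2(TPM + 1) or log2(TPM + 0.1), voom with quality weights, upper quartile scaling, other filters, ribosomal and mitochondrial RNA left out, the 2 compared groups alone, and each library left out. Subunit ratios were compared by exact permutation; of 7 listed, 4 could be computed. No 2 libraries of a group agreed within sampling noise. The DOCA pair was the least alike, with a chi-square per degree of freedom of 145.0, against 30.7 to 108.0 for pairs within the other groups.

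The members, current lists, partner and marker lists were chosen with earlier results of these data known. Named genes were the members of the current lists (Ito, IKur, IKr, IKs, IK1, IKACh, IKATP, SK, BK, K2P) above 0 in all 5 controls, other members past the threshold, and the 5 other members of highest control TPM; exceptions are marked. Some members and markers are not reported here by name, but remain in the counts.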

Additional observations from a re-analysis of the deposited data

Results flagged for a closer look

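In 25 genes above 0 in every control, each control group of 5 was searched for a library standing apart, by the gap to its nearest neighbour over the range of the group, with a critical value of 0.71. Chance alone flags about 1 in 20 groups, and 2 of 25 were marked. KCNH7 measured 13.6 CPM in control library 2, against 1.76 to 2.98 CPM in the other controls. KCNT2 measured 2.38 CPM in control library 1, its lowest value, against 9.67 to 12.0 CPM in the others.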

How the results depend on the processing

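The number of KCN genes called in DOCA against control was 7 of 35 tested. With limma on log2(TPM + 0.1) it was 11 of 35, where 5641 of all 18115 genes were called lower. With quality weights per library it was 0 of 35, where 94 of 17251 genes were called lower. Leaving out 1 control or JK07 library gave 6 to 9, with 9 without library 10, where 3010 of 17166 genes were called lower. In DOCA plus JK07 against DOCA the number was 6 of 35, and 10 of 35 in both limma fits on TPM. Those fits, with 1 and 0.1 added, called 5430 and 6016 of 18115 genes higher. With quality weights the number was 0, and leaving out 1 control or JK07 library gave 6 each time. Quality weights let the spread differ between libraries. In DOCA plus JK07 against control the number of KCN genes called was 0 in all settings run. Without library 6, the DOCA value of genes at 0 in library 7 rests on that 0: KCNE1 (-7.80) and KCNJ11 (-11.24) in DOCA against control, and KCNJ11 (11.59) in DOCA plus JK07 against DOCA, took the opposite sign and passed. Over the libraries left out, their highest or lowest values at the other end were 1.05, 1.4 and -1.05, each without library 7. The ratio of KCNN2 to KCNN3 (log2 difference 0.28, exact permutation p = 0.607) ranged from 0.0 to 0.56 with 1 library left out, lowest without library 10. All other ratios kept their sign and stayed above the threshold. Of 1537 values of single genes under alternatives, 1363 kept direction and call, 25 lost and 31 gained a call, 3 turned with a call, and 115 changed sign without one. The 27 genes above 0 in every control all had at least 10 counts. Over all genes, 988 were higher and 3403 lower in DOCA than in control; quality weights gave 67 and 94, upper quartile scaling 1523 and 2868, and limma 258 and 4844 with 1 added to TPM or 222 and 5641 with 0.1. For DOCA plus JK07 against DOCA, 2542 were higher and 388 lower, and these settings gave 1 and 4, 2095 and 752, 5430 and 94, and 6016 and 59. The count of KCN genes at 0 in both DOCA libraries with an expected coverage of at least 1 in both, 3, was the same on the rescaled TPM scale, a setting chosen after seeing the data. No paired analysis was possible because the library numbers 1 to 10 are not shared between groups. Low depth in DOCA limits what a listed 0 can show.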
